A study of Rattus norvegicus with 23 samples.

Results

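Actin filaments, the contractile proteins that pull on them and the focal adhesions that tie them to the matrix were described here through 48 genes in cultures of rat liver cells. The 48 genes were chosen by function, but with earlier results of these data known, so counts in the set are no independent test. They were actins, their contractile and cross-linking partners, the plaque, integrins, signalling genes, the ERM proteins, monomer-binding genes and vimentin. For each gene, only probe sets (groups of short probes that report on 1 transcript) naming that gene and no other were kept, and the one with the highest mean over all 23 arrays was used. This gave 46 genes out of the 14218 genes measured in the same way, since Myl6 and Tmsb10 had no probe set of their own. Genome-wide expression was measured in hepatocytes, in liver sinusoidal endothelial cells (LSECs, which line the blood channels of the liver) and in Kupffer cells (KCs, the resident macrophages) in 5 kinds of culture. Hepatocytes and LSECs were isolated together from female Lewis rats, and KCs were bought as cryopreserved primary rat cells.

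The groups were as follows. In the 3DHLK model, hepatocytes lay below a thin detachable film of chitosan and hyaluronic acid with LSECs and KCs seeded on it, and on day 12 the fractions were taken apart. LSECs (n = 3), hepatocytes (n = 3) and KCs (n = 2) were separated with magnetic beads carrying antibodies to SE-1 for LSECs and to CD163 for KCs, and further KC samples had not passed the RNA quality check. The 3DHL model was built in the same way without KCs, and gave LSEC and hepatocyte fractions on day 12 (n = 3 each). Hepatocytes kept between collagen layers (collagen sandwich, CS) and hepatocytes kept as a monolayer on collagen (hepatocyte monolayer, HM) were also taken on day 12 (n = 3 each), and KC monolayers on day 3 (n = 3), so KC culture and day cannot be told apart. No label ties a replicate to an animal of its own, so p-values cover only how far these samples spread, which could be technical variation. Fractions of 1 model may come from the same cultures, which no label states, and they were fitted as independent samples. The spread of each gene was estimated over all 8 groups together, so it can come from groups outside a comparison. All values below are log2 values after robust multichip averaging (RMA), in which a difference of 1 is a doubling, and a gene was called when its limma p-value, adjusted over all 14218 genes, was under 0.05.

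Actin monomers assemble into filaments. Myosin, tropomyosin, calponin and transgelin bind these filaments and set their tension, and alpha-actinin and filamin tie them to each other. Integrins grip the matrix outside the cell, and talin, vinculin, zyxin and paxillin join integrins to the filaments in the focal adhesion, where the focal adhesion kinase and Src relay signals. In the liver, smooth muscle type actin and transgelin are known as marks of activated stellate cells (the vitamin A storing cells next to LSECs), hepatocytes spread flat on stiff plastic build stress fibres, and in LSECs the actin network surrounds the pores called fenestrae. Transcription of many of these genes is driven by serum response factor (SRF), which binds a DNA element called the CArG box.

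The labelled cell types were set against marker genes before any comparison. The mean of 16 endothelial markers was 6.23 to 6.29 in the LSEC fraction of 3DHLK and 6.08 to 6.16 in that of 3DHL, against 6.60 to 6.67 and 6.04 to 6.20 in the hepatocyte fractions of the same models. Of these 16 markers, 6 were higher and 6 lower in the LSEC fraction than in the hepatocyte fraction of 3DHLK, against 34.7% and 25.7% of all genes. These list means, and both Stab2 values that follow, lay below the array medians (7.41 to 7.53). Stab2, a scavenger receptor of LSECs, averaged 5.98 in the LSEC fraction and 5.46 in the hepatocyte fraction, whereas the endothelial receptors Tek (5.38 and 7.73), Flt1 (7.32 and 9.51) and Eng (7.65 and 9.66) were lower in the LSEC fraction. The mean of 14 hepatocyte markers was at least as high in the LSEC fractions (13.11 to 13.15 in 3DHLK and 12.91 to 12.97 in 3DHL) as in the hepatocyte fractions (12.41 to 12.57 in 3DHLK and 12.34 to 12.43 in 3DHL). The KC fraction of 3DHLK had 12.06 to 12.13 for the hepatocyte markers and 6.91 to 7.18 for 15 macrophage markers, against 7.19 to 7.78 and 12.11 to 12.45 in the KC monolayers. The markers thus go against the labels of both bead-sorted fractions, which are called the LSEC fraction and the KC fraction below. Array medians lay between 7.41 and 7.53, and replicates correlated at 0.987 to 0.998 over all genes, except the KC monolayers at 0.942 to 0.969. In bulk RNA of this kind, fewer cells of a type and less RNA per cell cannot be told apart.

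RefSeq promoter windows of the rat build GRCr8, which run from 250 bases before to 50 bases after a gene's start, were matched by symbol for 40 of the 48 genes (44 windows). They were searched on both strands for the CArG box, which stood in the windows of 3 genes (6.82% of the 44 windows, against 1.64% of all 33469 windows), and for GGAATG, the core of the element bound by TEAD factors, which stood in those of 10 genes (22.7% against 14.2%). Tagln, Myl9, Actn4, Ptk2, Rac1, Asap1, Lasp1 and Fermt2 had no window and were not searched. All 3 stretches with a CArG box are shown, whatever the level of the gene. Acta1 and Cnn2 had large differences between cultures, and Actg1 was nearly level over the day 12 groups. Each stretch is given in the direction of transcription with the box in capitals and 40 bases on either side.
Acta1, chr19:68784239-68784328, minus strand: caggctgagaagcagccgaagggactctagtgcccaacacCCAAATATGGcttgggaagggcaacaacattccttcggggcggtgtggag
Actg1, chr10:106120992-106121081, minus strand: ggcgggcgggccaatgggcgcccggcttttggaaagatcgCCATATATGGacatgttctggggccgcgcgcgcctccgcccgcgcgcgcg
Cnn2, chr7:10370334-10370423, minus strand: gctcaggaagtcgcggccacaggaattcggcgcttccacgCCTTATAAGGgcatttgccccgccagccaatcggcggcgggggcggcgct
The boxes began 94, 90 and 71 bases before the annotated starts of Acta1, Actg1 and Cnn2. The Acta1 stretch also holds the TEAD core on its other strand (cattcc, beginning 67 bases before the start). A match of letters is a description and not a binding site.

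The set ranged more widely between groups than genes at large. The range of the 8 group means had a median of 1.73 over the 46 genes and of 1.12 over all genes, and of 1.13 and 0.75 over the 7 day 12 groups. The mean level of the set was also high (median 10.90 against 8.34 for all genes). Among the day 12 groups, the LSEC fraction of 3DHLK was the lowest for 19 of the 46 genes and the highest for 0, whereas HM was the highest for 16 and the lowest for 0. The same shares over all genes were not computed, so these counts do not show a trait particular to the set. The heat map of all 46 genes shows 2 kinds of pattern. Acta1, Cnn2, Ezr and Msn were low in the LSEC fraction of 3DHLK and in CS, with closer replicates in CS and HM than the average of the set, whereas Acta2, Actg2, Tpm2, Cnn1 and Myl9 were high in the hepatocyte fraction of 3DHLK or in CS and spread widely between the replicates of CS and HM. Over the 46 genes the replicate SD averaged 0.315 in CS and 0.253 in HM, against 0.157 and 0.112 over all genes.

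**Figure D1:**
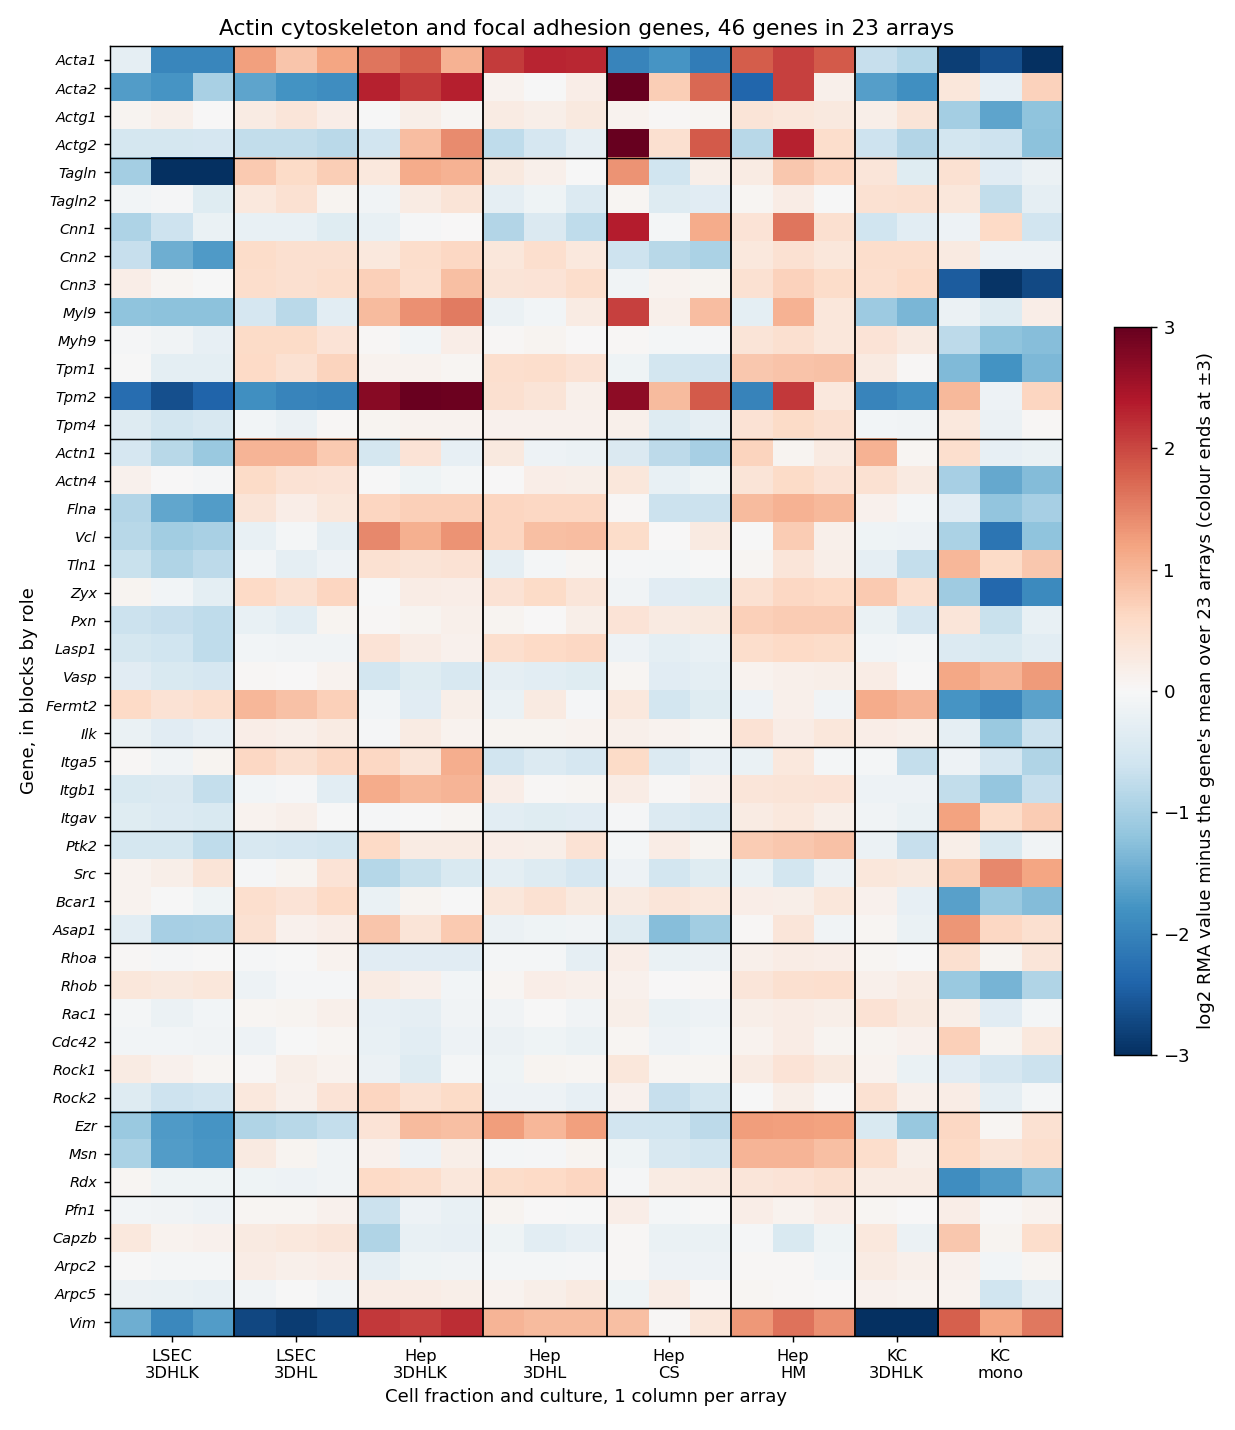
Log2 RMA value of each of the 46 genes in each of the 23 arrays, minus the gene's mean over all arrays (red above, blue below, colour ending at 3 either way), with genes in rows by role and arrays in columns by group. The LSEC fraction of 3DHLK is the lowest day 12 group for 19 genes (share over all genes not computed), and Acta2, Actg2, Tpm2, Cnn1 and Myl9 differ in colour between replicates of CS and of HM.

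**Figure D2:**
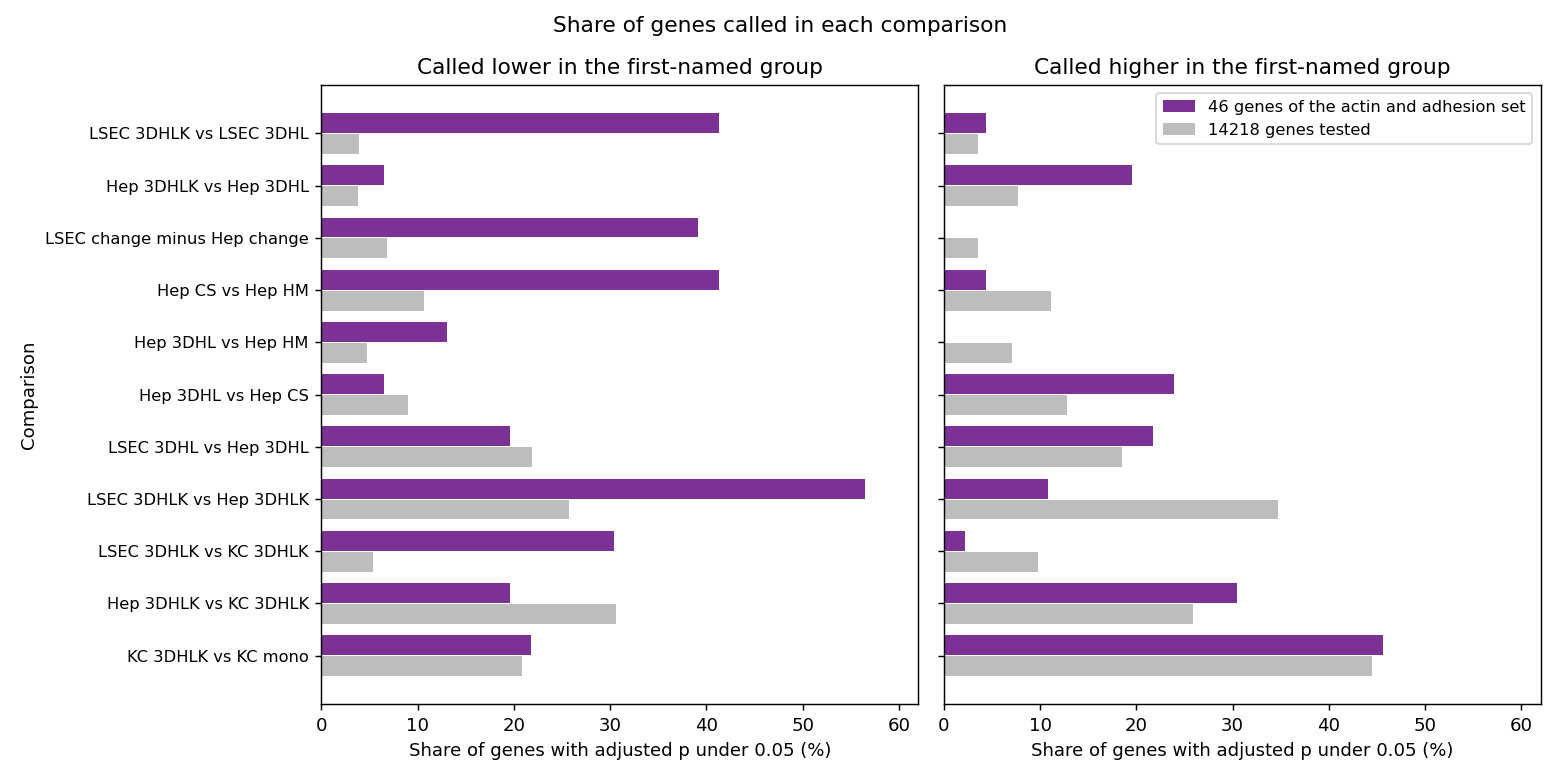
Share of genes called lower (left) and higher (right) in the first-named group of each comparison, in percent, for the 46 genes of the set (purple) and for all 14218 genes tested (grey). The set, chosen with earlier results of these data known, stood far above all genes for lower calls in the LSEC fraction of 3DHLK against 3DHL (41.3% against 3.89%) and in CS against HM (41.3% against 10.7%).

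Of the 4 actins, Acta1 (skeletal muscle alpha-actin) had the widest differences. It had 8.12, 6.43 and 6.42 in the LSEC fraction of 3DHLK and 9.61, 9.21 and 9.56 in that of 3DHL. The hepatocyte groups had 9.98, 10.18 and 9.43 in 3DHLK, 10.49, 10.67 and 10.64 in 3DHL, 6.41, 6.60 and 6.28 in CS and 10.19, 10.44 and 10.22 in HM. The KC fraction of 3DHLK had 7.70 and 7.53 and the KC monolayers 5.55, 5.75 and 5.41. All CS arrays lay at 6.60 or below and all other hepatocyte arrays at 9.43 or above, and in the LSEC fraction of 3DHLK replicate 1 stood above the other two. Acta2 (smooth muscle alpha-actin) had 7.40, 7.31 and 8.09 in the LSEC fraction of 3DHLK and 7.49, 7.28 and 7.20 in that of 3DHL. In hepatocytes it had 11.39, 11.16 and 11.41 in 3DHLK, 9.17, 9.06 and 9.27 in 3DHL, 12.08, 9.82 and 10.80 in CS and 6.70, 11.11 and 9.21 in HM. It had 7.43 and 7.23 in the KC fraction and 9.40, 8.82 and 9.75 in KC monolayers. The replicates of HM ran from 6.70 to 11.11 and those of CS from 9.82 to 12.08, while the 3DHLK and 3DHL hepatocytes were tight and apart. Actg2 (smooth muscle gamma-actin) lay at 6.57, 6.56 and 6.60 in the LSEC fraction of 3DHLK and 6.35, 6.36 and 6.29 in that of 3DHL. It lay at 6.52, 8.02 and 8.50 in hepatocytes of 3DHLK, 6.33, 6.60 and 6.82 in 3DHL, 10.26, 7.58 and 8.95 in CS and 6.26, 9.41 and 7.62 in HM, and at 6.48 and 6.21 in the KC fraction and 6.55, 6.47 and 5.87 in KC monolayers. The same replicate of HM (replicate 2) and of CS (replicate 1) was highest for both smooth muscle actins. Actg1, the gamma-actin of all cells, was the most even of the 4, with day 12 group means between 13.03 (CS) and 13.30 (HM) and 11.70 in KC monolayers.

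Among the contractile and filament-binding genes, Tagln (transgelin, an early smooth muscle protein) had 9.10, 6.78 and 6.90 in the LSEC fraction of 3DHLK and 10.91, 10.71 and 10.86 in that of 3DHL. Hepatocytes had 10.44, 11.24 and 11.16 in 3DHLK, 10.42, 10.29 and 10.12 in 3DHL, 11.47, 9.52 and 10.30 in CS and 10.38, 10.93 and 10.77 in HM. The KC fraction had 10.50 and 9.77 and KC monolayers had 10.60, 9.78 and 9.96. The LSEC fraction of 3DHLK lay at 9.10 or below and every other array at 9.52 or above, and within that fraction replicate 1 again stood above the other two. Tpm2 (beta-tropomyosin) had the widest range of group means of the whole set, with 7.64, 7.27 and 7.51 in the LSEC fraction of 3DHLK and 8.07, 7.94 and 7.88 in that of 3DHL. It had 12.65, 12.88 and 12.86 in hepatocytes of 3DHLK, 10.40, 10.31 and 10.05 in 3DHL, 12.59, 10.85 and 11.76 in CS and 7.90, 12.03 and 10.23 in HM, and 7.93 and 8.06 in the KC fraction and 10.88, 9.76 and 10.56 in KC monolayers. HM replicate 1 lay at the level of the LSEC fractions, and HM replicate 2 near that of CS. Myl9 (regulatory myosin light chain) had 8.18, 8.17 and 8.16 in the LSEC fraction of 3DHLK and 8.88, 8.57 and 9.08 in that of 3DHL. Its hepatocyte values were 10.34, 10.77 and 10.95 in 3DHLK, 9.22, 9.31 and 9.64 in 3DHL, 11.45, 9.53 and 10.31 in CS and 9.08, 10.44 and 9.74 in HM, and it had 8.29 and 8.01 in the KC fraction and 9.21, 9.0 and 9.60 in KC monolayers. Cnn3 (acidic calponin) had its lowest values in KC monolayers. It had 12.18, 12.04 and 11.96 in the LSEC fraction of 3DHLK and 12.52, 12.48 and 12.52 in that of 3DHL. Hepatocytes had 12.70, 12.49 and 12.88 in 3DHLK, 12.37, 12.39 and 12.52 in 3DHL, 11.88, 12.08 and 12.07 in CS and 12.44, 12.68 and 12.53 in HM. It had 12.48 and 12.59 in the KC fraction and 9.49, 9.05 and 9.28 in KC monolayers.

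The other contractile genes had smaller ranges. Cnn2 (neutral calponin) had 10.23, 9.47 and 9.23 in the LSEC fraction of 3DHLK and 10.30, 10.10 and 9.98 in CS, and every other array lay at 10.77 or above. Cnn1 (basic calponin, of smooth muscle) was highest in CS at 9.47, 7.06 and 8.24 and in HM at 7.53, 8.74 and 7.60, and had group means between 6.43 and 7.08 in the other 6 groups. Tpm1 and Tpm4 (tropomyosins of many tissues) had day 12 group means of 12.66 to 13.93 and 11.84 to 12.81. Myh9 (heavy chain of non-muscle myosin) and Tagln2 (a transgelin of many tissues) had 11.55 to 12.19 and 10.43 to 11.17.

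**Figure D3:**
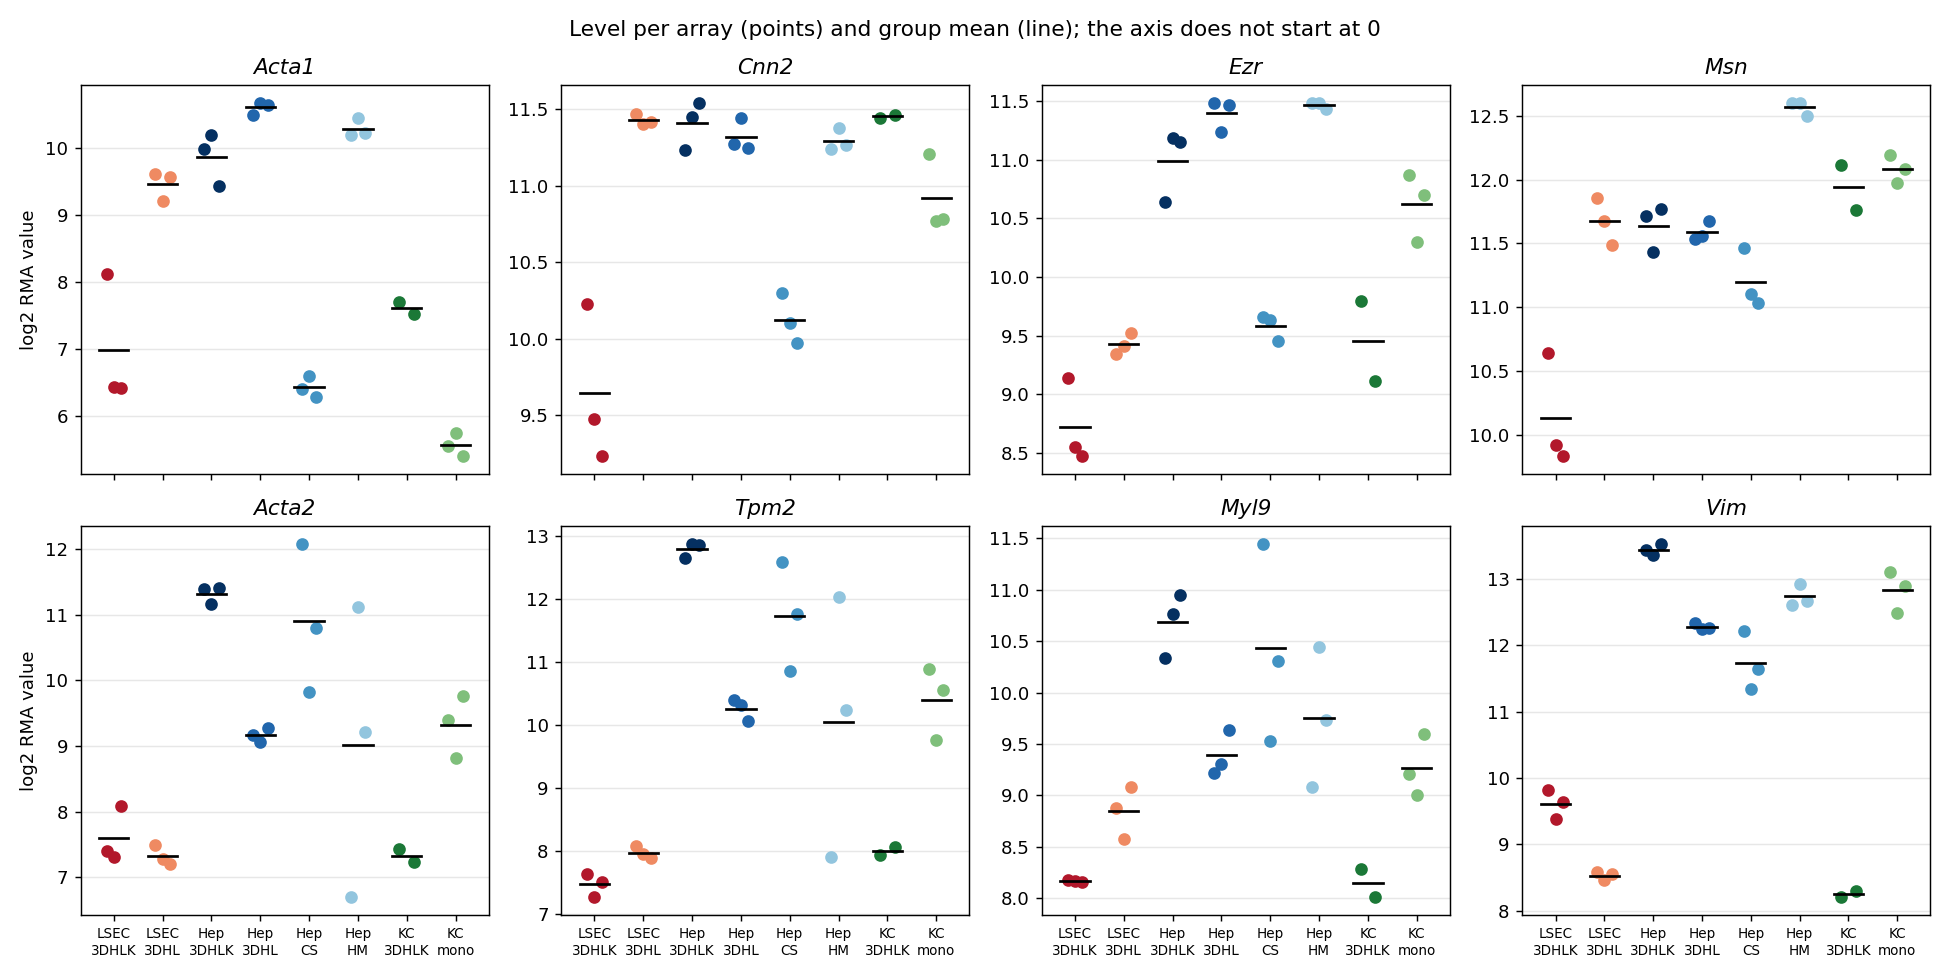
Log2 RMA value in each array (points) and group mean (line) of Acta1, Cnn2, Ezr and Msn (upper row) and Acta2, Tpm2, Myl9 and Vim (lower row) in the 8 groups; the axes do not start at 0. Upper row genes are low in the LSEC fraction of 3DHLK and in CS with close CS replicates, and Acta2, Tpm2 and Myl9 spread widely between the replicates of CS and of HM (Acta2 at 6.70 to 11.11 in HM).

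Among the cross-linkers and plaque proteins, Vcl (vinculin, which strengthens the link of talin to actin) had 9.99, 9.80 and 9.85 in the LSEC fraction of 3DHLK and 10.61, 10.77 and 10.56 in that of 3DHL. Hepatocytes had 12.27, 11.91 and 12.18 in 3DHLK, 11.48, 11.74 and 11.76 in 3DHL, 11.38, 10.83 and 11.10 in CS and 10.81, 11.59 and 10.99 in HM. The KC fraction had 10.71 and 10.69 and KC monolayers had 9.90, 8.65 and 9.62. Every hepatocyte array was above every array of the LSEC fraction of 3DHLK, and 3DHLK hepatocytes were the highest. Fermt2 (kindlin-2, an activator of integrins) was higher in both bead-sorted fractions than in hepatocytes. It had 11.27, 11.10 and 11.18 in the LSEC fraction of 3DHLK, 11.67, 11.56 and 11.38 in that of 3DHL and 11.79 and 11.69 in the KC fraction. Hepatocytes had 10.59, 10.33 and 10.85 in 3DHLK, 10.47, 10.94 and 10.63 in 3DHL, 10.98, 10.12 and 10.31 in CS and 10.52, 10.84 and 10.58 in HM, and KC monolayers had 8.90, 8.72 and 9.07. Flna (filamin A) had 10.88, 10.19 and 10.07 in the LSEC fraction of 3DHLK, 12.15, 11.96 and 12.09 in that of 3DHL, 11.80, 11.10 and 11.10 in CS and 12.70, 12.79 and 12.72 in HM. Actn1 (alpha-actinin-1) had 10.36, 10.04 and 9.74 in the LSEC fraction of 3DHLK and 11.88, 11.88 and 11.66 in that of 3DHL, where it was at its highest. The day 12 group means of Actn4 (alpha-actinin-4), Zyx (zyxin) and Pxn (paxillin, a scaffold) were 11.52 to 12.05, 10.53 to 11.45 and 9.11 to 10.55. Those of Lasp1 (an actin-binding LIM and SH3 protein), Vasp (which extends filaments), Tln1 (talin-1) and Ilk (integrin-linked kinase) were 11.88 to 13.08, 11.11 to 11.71, 10.01 to 11.22 and 11.40 to 11.99.

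The ERM proteins ezrin, radixin and moesin fasten filaments to the membrane. Ezr (ezrin, the form of epithelia) had 9.13, 8.55 and 8.47 in the LSEC fraction of 3DHLK and 9.34, 9.41 and 9.53 in that of 3DHL. Hepatocytes had 10.64, 11.18 and 11.15 in 3DHLK, 11.49, 11.23 and 11.46 in 3DHL, 9.66, 9.63 and 9.46 in CS and 11.49, 11.48 and 11.44 in HM. The KC fraction had 9.79 and 9.11 and KC monolayers had 10.87, 10.29 and 10.70. CS was the lowest hepatocyte culture, and 1 of its arrays lay within the range of the LSEC fractions and 2 just above it. Msn (moesin, abundant in endothelium and leukocytes) had 10.64, 9.92 and 9.83 in the LSEC fraction of 3DHLK and 11.86, 11.68 and 11.48 in that of 3DHL. It had 11.71, 11.43 and 11.77 in hepatocytes of 3DHLK, 11.54, 11.55 and 11.68 in 3DHL, 11.46, 11.10 and 11.03 in CS and 12.60, 12.60 and 12.50 in HM, and 12.11 and 11.76 in the KC fraction and 12.19, 11.97 and 12.08 in KC monolayers. HM was the highest group, and every array of the other groups lay at 12.19 or below. Rdx (radixin, the main ERM protein of hepatocytes) was even, with day 12 group means of 11.91 to 12.64, and lower in KC monolayers (10.43).

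Vim (vimentin, the intermediate filament protein of mesenchymal cells and leukocytes, measured here beside the actin genes) separated the bead-sorted fractions from all other groups. It had 9.83, 9.38 and 9.64 in the LSEC fraction of 3DHLK, 8.58, 8.46 and 8.55 in that of 3DHL and 8.21 and 8.30 in the KC fraction. Hepatocytes had 13.43, 13.35 and 13.53 in 3DHLK, 12.33, 12.24 and 12.26 in 3DHL, 12.21, 11.34 and 11.64 in CS and 12.61, 12.93 and 12.67 in HM, and KC monolayers had 13.11, 12.48 and 12.89. Every array of the bead-sorted fractions lay at 9.83 or below and every other array at 11.34 or above.

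The integrins and signalling genes are given by the range of their group means. Itga5 and Itgb1 encode the chains of the fibronectin receptor, and Itgav the alpha chain of vitronectin receptors; their day 12 group means were 8.98 to 10.17, 11.04 to 12.62 and 10.79 to 11.45. Ptk2 (focal adhesion kinase) had day 12 group means of 7.99 to 9.41, with HM the highest, Src those of 7.80 to 8.78, Bcar1 (p130Cas, a docking protein) those of 10.36 to 10.93 and Asap1 (an Arf GTPase-activating protein of adhesions) those of 8.04 to 9.62. Day 12 group means were 12.25 to 12.79 for Rhoa, 11.97 to 12.48 for Rhob, 11.93 to 12.50 for Rac1, 12.03 to 12.39 for Cdc42, 7.67 to 8.18 for Rock1 and 9.51 to 10.59 for Rock2. The monomer-binding and assembly genes Pfn1 (profilin), Capzb (the beta chain of capping protein), Arpc2 and Arpc5 (subunits of the Arp2/3 complex, which branches filaments) had day 12 group means of 13.17 to 13.68, 10.04 to 10.82, 12.54 to 12.90 and 11.40 to 11.80. With the mean of their probe sets, Src, Asap1, Lasp1 and Ptk2 turned sign in at least 1 comparison where either value was called. Another 30 changes, over all genes of the set and comparisons, turned sign with neither value called.

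With KCs in the culture, the LSEC fraction had lower levels of many genes of the set. Of the 46 genes, 19 were lower and 2 higher in the LSEC fraction of 3DHLK than in that of 3DHL, against 3.89% lower and 3.58% higher of all genes tested, and the median log2 change was -0.46 over the set and 0.04 over all genes. Tagln fell the most, with a log2 change of -3.23 (95% CI -4.19 to -2.27, adjusted p = 8.6e-05), followed by Acta1 at -2.47 (95% CI -3.07 to -1.87, adjusted p = 9.9e-06), Cnn2 at -1.79 (95% CI -2.15 to -1.42, adjusted p = 1.13e-06) and Actn1 at -1.76 (95% CI -2.31 to -1.21, adjusted p = 0.000154). Flna and Msn fell by 1.69 and 1.54. The further genes called lower were Asap1 (-1.02), Rock2 (-0.82), Tpm1 (-0.78), Vcl (-0.76), Ezr (-0.71), Zyx (-0.66), Myh9 (-0.64), Tln1 (-0.61), Lasp1 (-0.52), Bcar1 (-0.51), Itgav (-0.50), Vasp (-0.49) and Cnn3 (-0.44). Vim was higher by 1.08 (95% CI 0.72 to 1.45, adjusted p = 0.000376) and Rhob by 0.38 (95% CI 0.14 to 0.62, adjusted p = 0.0468). By role, 7 of 11 cross-linkers and plaque genes, 5 of 10 contractile genes, 2 of 3 ERM genes and 2 of 4 signalling genes were lower, but 0 of 4 monomer-binding and assembly genes (median log2 change -0.17).

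The study singles out a group of focal adhesion genes for LSECs. Its evidence for them is enrichment of a whole focal adhesion kinase gene set, not a test of each gene. The study also reports as lower in LSECs with KCs gene sets for the actin cytoskeleton and for actin filament processes, and the gene Sh3gl1 (endophilin A2). It counts the talin and integrin genes among those behind the enrichment of the focal adhesion kinase set, and reports lower Rock2 and Rac1 with KCs. For Ptk2 and Rhoa it states no fall of their own. Enrichment of these gene sets was not tested here. Of the 7 genes, tested singly, Tln1 and Rock2 passed the test at -0.61 (95% CI -0.89 to -0.34, adjusted p = 0.00433) and -0.82 (95% CI -1.16 to -0.47, adjusted p = 0.00277), and 5 did not. Itga5 had -0.57 (95% CI -1.05 to -0.09, adjusted p = 0.155) and Itgb1 -0.39 (95% CI -0.64 to -0.13, adjusted p = 0.0564). Rac1, Ptk2 and Rhoa had -0.20, -0.09 and -0.02. The intervals, which are not adjusted, lay below 0 for Itga5 and Itgb1 and spanned 0 for the other 3. Itgb1 passed the test under 6 of 8 other settings, with an adjusted p of 0.00722 without the KC monolayers. Itga5 passed under 1, with an adjusted p of 0.00353 when the 6 LSEC arrays were fitted alone. A list of 21 markers of stellate cells and fibroblasts averaged 6.25 to 6.51 in 3DHLK and 6.31 to 6.44 in 3DHL. Of these, 0 were higher and 2 lower, against 3.58% and 3.89% of all genes. The 15 macrophage markers averaged 6.93 to 7.16 in 3DHLK and 6.65 to 6.77 in 3DHL (2 higher, 0 lower), and 1 of 14 hepatocyte markers was higher and 1 lower. Of the 21 calls, 13 held in each of the 6 fits that left out 1 array, among them the 6 largest falls. The others were Bcar1, Cnn3, Ezr, Itgav, Rhob, Vasp, Vcl and Zyx, whose adjusted p reached at most 0.211. Without replicate 3 of 3DHLK, 13 genes were called.

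**Figure D4:**
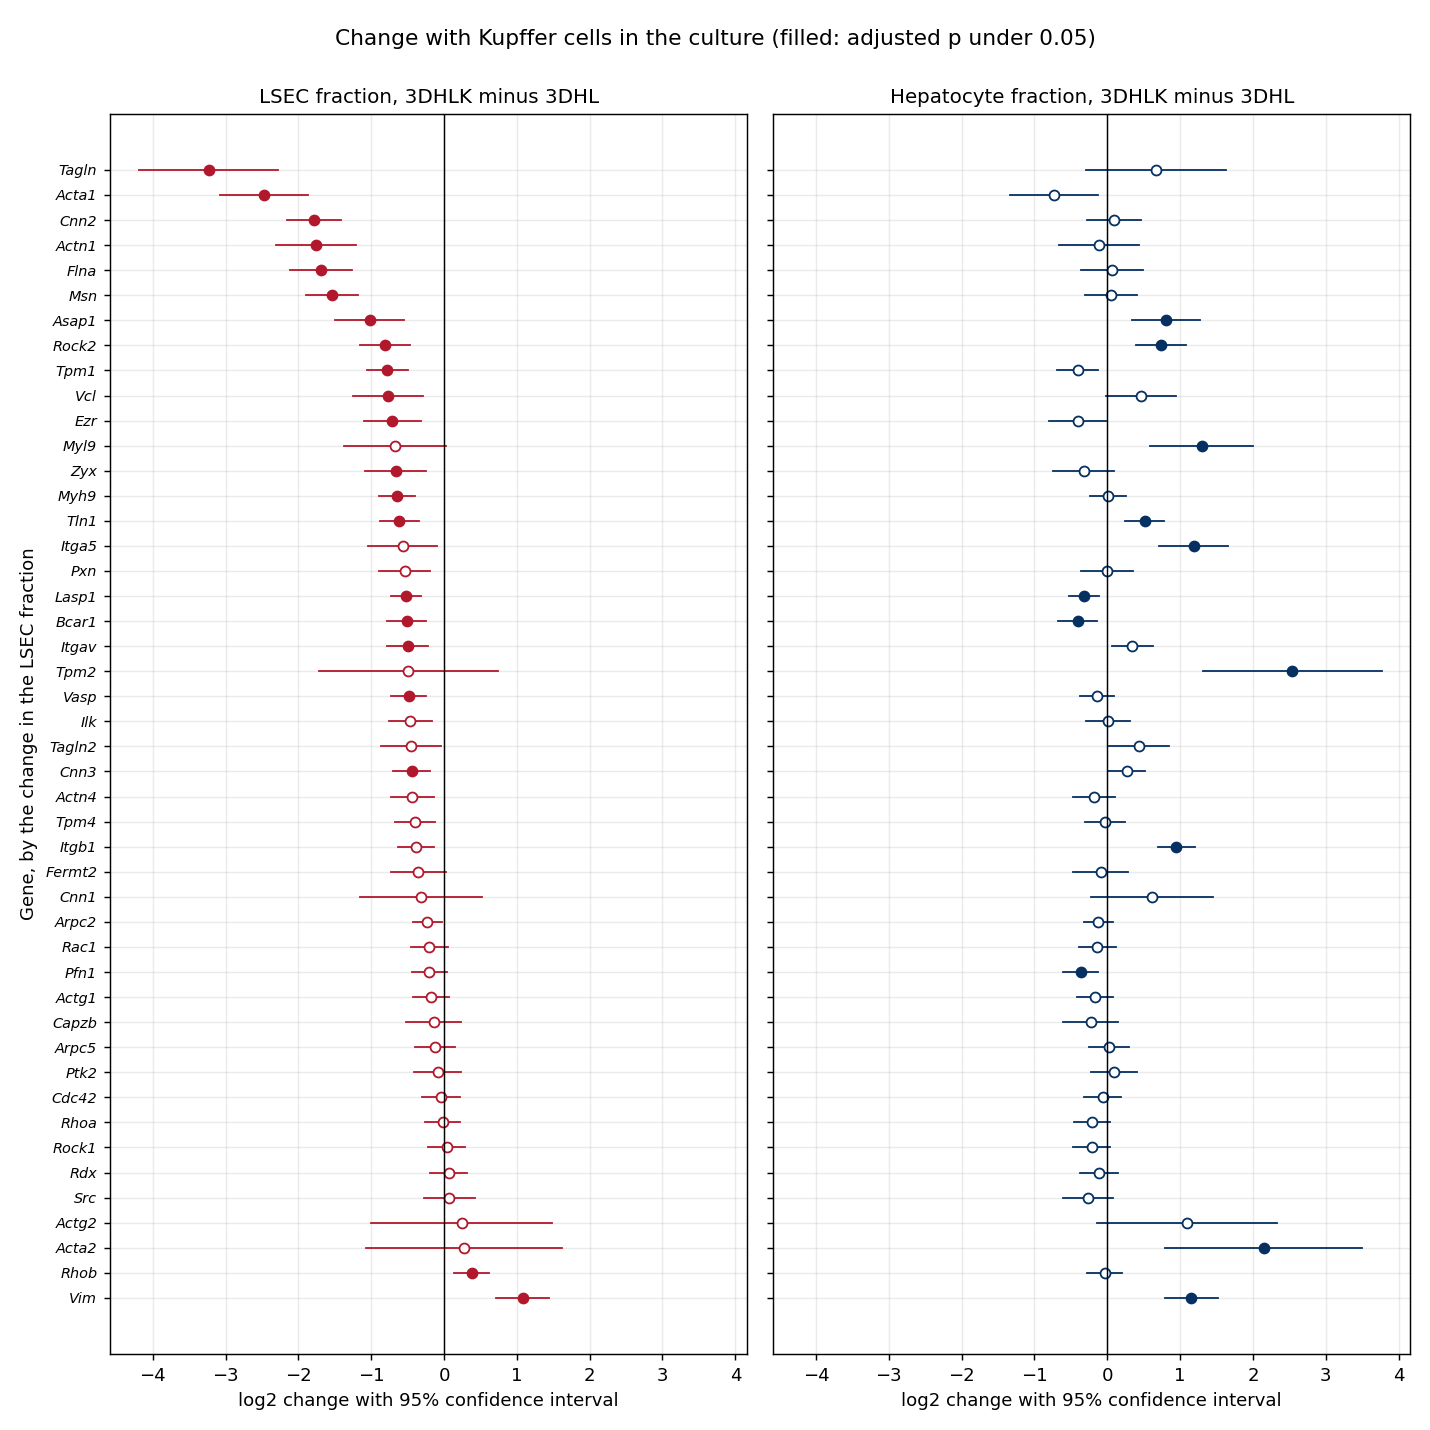
Log2 change with its 95% confidence interval of each of the 46 genes in the LSEC fraction (left) and in the hepatocyte fraction (right), each as 3DHLK minus 3DHL, with filled points for adjusted p under 0.05 and genes in the order of the LSEC change. Tagln, Acta1, Cnn2, Actn1, Flna and Msn lie at -1.54 or below on the left only, and Tpm2, Acta2, Myl9, Itga5, Vim and Itgb1 at 0.95 or above on the right.

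In the hepatocyte fraction the same addition of KCs went with higher levels of Tpm2, Acta2, Myl9, Itga5, Vim and Itgb1. There, 9 of the 46 genes were higher and 3 lower in 3DHLK than in 3DHL, against 7.72% and 3.76% of all genes, with a median log2 change of 0.00 over the set and -0.08 over all genes. Tpm2 rose by 2.54 (95% CI 1.31 to 3.77, adjusted p = 0.00523) and Acta2 by 2.15 (95% CI 0.80 to 3.50, adjusted p = 0.0338). For Myl9 the log2 change was 1.29 (95% CI 0.59 to 2.0, adjusted p = 0.0128) and for Itga5 1.19 (95% CI 0.71 to 1.66, adjusted p = 0.000974), and their arrays did not overlap. Vim (1.16), Itgb1 (0.95), Asap1 (0.81), Rock2 (0.74) and Tln1 (0.51) also rose. Bcar1 fell, with a log2 change of -0.41 (95% CI -0.67 to -0.14, adjusted p = 0.0429), Pfn1 at -0.37 (95% CI -0.61 to -0.13, adjusted p = 0.0431) and Lasp1 at -0.32 (95% CI -0.53 to -0.12, adjusted p = 0.0362). These 3 genes lost their calls after cyclic loess (adjusted p = 0.255 for Bcar1, 0.0719 for Pfn1 and 0.148 for Lasp1), and Pfn1 and Lasp1 also with only the arrays compared (0.111 and 0.0771). Acta1, which fell in the LSEC fraction, had -0.73 (95% CI -1.34 to -0.13, adjusted p = 0.115) here, and Ptk2, Rhoa and Rac1 had 0.09, -0.21 and -0.14 without passing the test.

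Markers of other cells rose in the same hepatocyte arrays. Of the 21 stellate and fibroblast markers, 16 rose and 0 fell in the hepatocyte fraction of 3DHLK against that of 3DHL. Among all genes, 7.72% rose and 3.76% fell. The list mean was 9.82 to 10.05 in 3DHLK and 7.79 to 8.12 in 3DHL. Pdgfra, a receptor that defines these cells, averaged 9.74 in 3DHLK and 5.73 in 3DHL, and Lum, a matrix protein, 8.55 in 3DHLK and 3.61 in 3DHL, while Lrat, the enzyme that stores vitamin A in stellate cells, averaged 4.95 in 3DHLK and 5.15 in 3DHL. Of 15 macrophage markers, 10 were higher (7.76 to 8.19 in 3DHLK and 6.75 to 7.11 in 3DHL), and of 16 endothelial markers 5 (6.60 to 6.67 in 3DHLK and 6.04 to 6.20 in 3DHL). Their part in the rise of Tpm2, Acta2 and Myl9 was not tested. Of the 12 calls, 5 (Tpm2, Vim, Itga5, Itgb1 and Rock2) held in each of the 6 fits that left out 1 array, and 5, 6 and 7 genes were called without 3DHL replicate 1, 3DHL replicate 2 and 3DHLK replicate 3. Acta2 lost its call whichever array was left out, while its log2 change stayed at 2.10 to 2.23 (adjusted p up to 0.104). The spread used for Acta2 includes HM (SD 2.21) and CS (SD 1.13), which are outside this comparison. Its SD was 0.136 in the hepatocytes of 3DHLK and 0.109 in those of 3DHL. Pfn1 was at -0.21 without 3DHLK replicate 1.

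**Figure D5:**
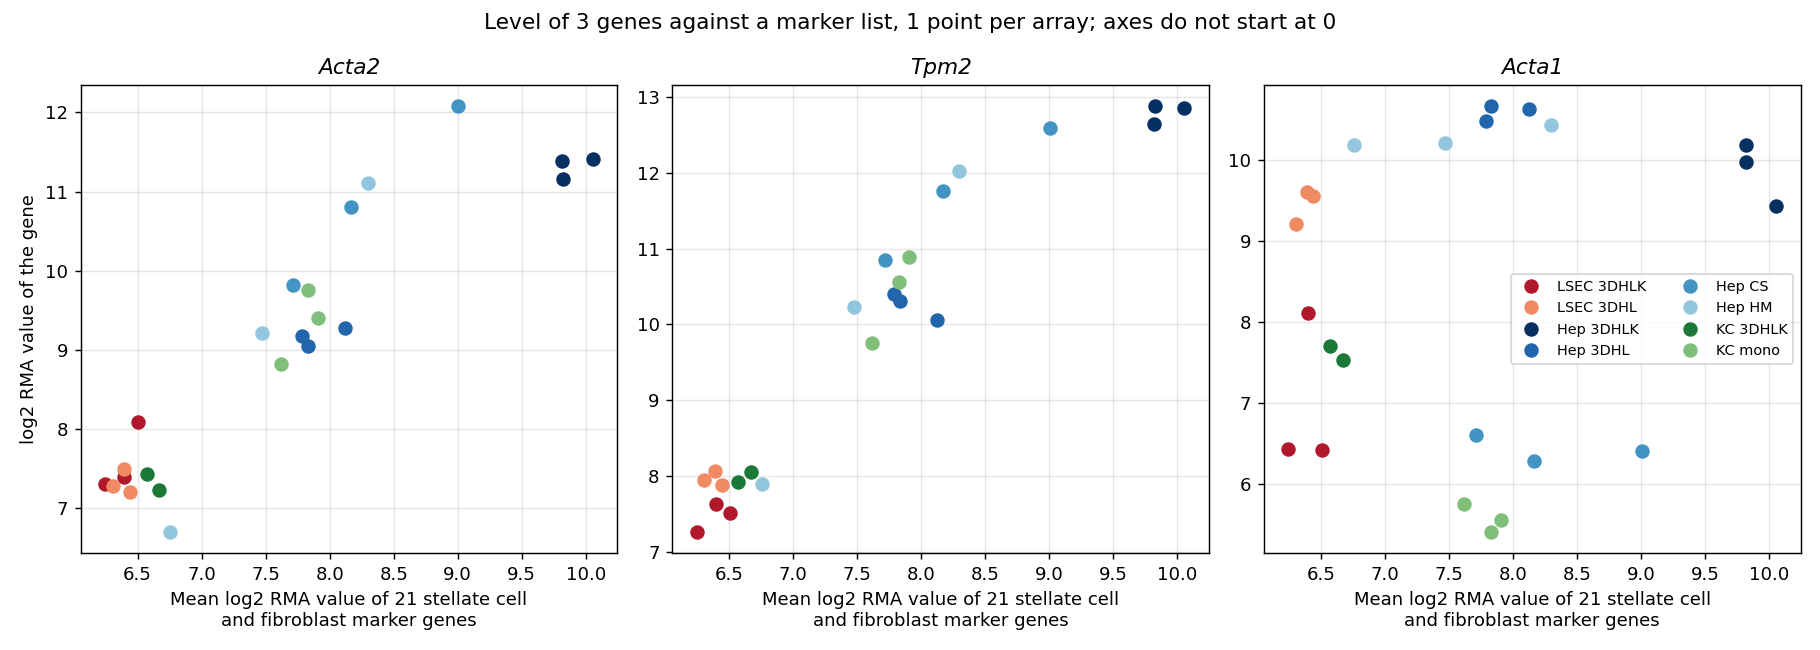
Log2 RMA value of Acta2, Tpm2 and Acta1 (vertical axes) against the mean log2 RMA value of 21 stellate cell and fibroblast marker genes (horizontal axis), with 1 point for each of the 23 arrays coloured by group; the axes do not start at 0. Acta2 and Tpm2 are highest in the arrays with high marker means, among them CS replicate 1 (9.0) and the hepatocyte fraction of 3DHLK (9.82 to 10.05), and Acta1 lies at 6.28 to 6.60 in the 3 CS arrays, whose marker means run from 7.71 to 9.0.

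The change in the LSEC fraction was tested against that in the hepatocyte fraction (LSEC change minus hepatocyte change). This difference was below 0 for 18 of the 46 genes and above 0 for 0, against 6.81% and 3.51% of all genes, with a median of -0.42 over the set and 0.11 over all genes. The largest was that of Tagln at -3.90 (95% CI -5.26 to -2.55, adjusted p = 0.000301), with Tpm2 at -3.03 (95% CI -4.77 to -1.29, adjusted p = 0.0219), Myl9 at -1.97 (95% CI -2.96 to -0.98, adjusted p = 0.00916) and Cnn2 at -1.87 (95% CI -2.40 to -1.35, adjusted p = 2.62e-05). All 3 integrins were among the 18. Itga5 had a log2 change of -0.57 in the LSEC fraction and 1.19 in hepatocytes, Itgb1 of -0.39 and 0.95, and Itgav of -0.50 and 0.34. Tln1 and Rock2 passed the test in opposite directions in the 2 fractions (-0.61 and 0.51, -0.82 and 0.74), as did Asap1 (-1.02 and 0.81). Vim rose in both, and the difference of -0.08 (95% CI -0.59 to 0.44, adjusted p = 0.886) did not pass the test. Of the 18 calls, 14 held in each of the 12 fits that left out 1 array, and Tpm2, Vcl, Myh9 and Tagln2 lost theirs in at least 1 (adjusted p up to 0.12).

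Between the single-culture hepatocyte systems, CS had lower levels than HM. Of the 46 genes, 19 were lower and 2 higher in CS, against 10.7% and 11.1% of all genes, with a median log2 change of -0.27 over the set and 0.04 over all genes. Acta1 fell, with a log2 change of -3.85 (95% CI -4.46 to -3.25, adjusted p = 4.04e-09) and Ezr at -1.88 (95% CI -2.28 to -1.49, adjusted p = 2.38e-07). For Flna the log2 change was -1.41 (95% CI -1.83 to -0.98, adjusted p = 2.86e-05) and for Msn -1.37 (95% CI -1.73 to -1.01, adjusted p = 4.86e-06), with no overlap between arrays. Tpm1 (-1.27), Cnn2 (-1.17), Actn1 (-1.07), Vim (-1.0), Asap1 (-1.0), Zyx (-0.83), Lasp1 (-0.78), Ptk2 (-0.74), Tpm4 (-0.66), Itgav (-0.56), Cnn3 (-0.54), Actn4 (-0.47), Myh9 (-0.42), Rhob (-0.38) and Vasp (-0.33) were lower as well. Acta2 and Tpm2 were called higher at 1.89 (95% CI 0.54 to 3.24, adjusted p = 0.0414) and 1.68 (95% CI 0.45 to 2.91, adjusted p = 0.0458), but their arrays overlapped. Without HM replicate 1 these became 0.73 and 0.60, and without HM replicate 2 they became 2.94 and 2.67. The stellate cell and fibroblast marker mean followed the same arrays, at 9.0, 7.71 and 8.17 in CS replicates 1 to 3 and 6.76, 8.30 and 7.47 in HM replicates 1 to 3, and its part in the values of Acta2, Actg2, Tpm2, Cnn1 and Myl9 was not tested. The hepatocyte marker mean was 13.27 to 13.29 in CS and 12.88 to 12.90 in HM (6 of 14 higher and 0 lower). Of the focal adhesion genes named for LSECs, Ptk2 fell, and Itga5 (-0.06), Itgb1 (-0.25), Tln1 (-0.24), Rock2 (-0.44), Rhoa (-0.25) and Rac1 (-0.25) did not pass the test. Of the 21 calls, 15 held in each of the 6 fits that left out 1 array, with Acta2, Tpm2, Actn4, Myh9, Rhob and Vasp the exceptions (adjusted p up to 0.381).

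Hepatocytes of 3DHL had higher levels of Acta1, Ezr, Cnn2 and Flna than CS and lower levels of Msn and Cnn1 than HM. Against HM, 6 of the 46 genes were lower and 0 higher in 3DHL (4.70% and 7.04% of all genes; median log2 change -0.29 over the set and 0.01 over all genes). Cnn1 was at -1.53 (95% CI -2.36 to -0.69, adjusted p = 0.0154) and Msn at -0.98 (95% CI -1.34 to -0.62, adjusted p = 0.000596). Pxn was at -0.66 (95% CI -1.02 to -0.31, adjusted p = 0.0133) and Itgav at -0.58 (95% CI -0.87 to -0.30, adjusted p = 0.00679). Ptk2 (-0.55) and Vasp (-0.46) were lower too. The count depended on the setting, with 18 genes lower and 0 higher after cyclic loess, 18 lower and 1 higher without the KC monolayers and 22 lower and 1 higher with only the arrays compared. Calls among all genes moved too, from 668 lower and 1001 higher as deposited to 1107 and 884 after cyclic loess. They were 1271 lower and 1984 higher without the KC monolayers, and 1793 and 2677 with only the arrays compared. Acta1 and Ezr differed from HM by 0.32 (95% CI -0.29 to 0.92, adjusted p = 0.552) and -0.07 (95% CI -0.47 to 0.32, adjusted p = 0.852), neither called. Against CS, 11 genes were higher and 3 lower in 3DHL (12.8% and 9.03% of all genes; medians 0.05 and -0.02). Acta1 was higher by 4.17 (95% CI 3.57 to 4.77, adjusted p = 8.64e-10) and Ezr by 1.81 (95% CI 1.42 to 2.20, adjusted p = 3.71e-07). For Cnn2 the log2 change was 1.20 (95% CI 0.83 to 1.56, adjusted p = 3.95e-05) and for Flna 1.05 (95% CI 0.62 to 1.47, adjusted p = 0.000753), and Tpm1 (0.91), Lasp1 (0.80), Asap1 (0.77), Zyx (0.73), Vim (0.55), Rdx (0.43) and Cnn3 (0.41) were higher too. Actg2 was lower, with a log2 change of -2.35 (95% CI -3.59 to -1.11, adjusted p = 0.00682) and Cnn1 at -1.83 (95% CI -2.67 to -1.0, adjusted p = 0.00214), and Myl9 at -1.04 with overlapping arrays (-0.53 without CS replicate 1). Itga5, Itgb1, Tln1, Rock2, Rhoa and Rac1 passed the test in neither comparison. In the fits that left out 1 array, 3 of the 6 calls against HM (Msn, Itgav and Vasp) and 7 of the 14 against CS (Acta1, Ezr, Cnn2, Flna, Tpm1, Lasp1 and Cnn1) held every time, and Vim was at 0.35 without CS replicate 2.

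The LSEC fraction was also set against the hepatocyte fraction of the same model. In 3DHL, 10 genes were higher and 9 lower in the LSEC fraction, near the 18.5% and 21.9% of all genes. Vim was lower, with a log2 change of -3.75 (95% CI -4.11 to -3.38, adjusted p = 1.26e-12) and Tpm2 at -2.29 (95% CI -3.52 to -1.06, adjusted p = 0.00453). For Ezr the log2 change was -1.97 (95% CI -2.36 to -1.58, adjusted p = 8.27e-08) and for Acta2 -1.84 (95% CI -3.19 to -0.49, adjusted p = 0.0291). Itga5 was higher by 1.07 (95% CI 0.59 to 1.54, adjusted p = 0.00114) and Actn1 by 0.95 (95% CI 0.40 to 1.5, adjusted p = 0.00748). For Fermt2 the log2 change was 0.86 (95% CI 0.48 to 1.23, adjusted p = 0.000914) and for Tagln2 0.55 (95% CI 0.14 to 0.96, adjusted p = 0.0301). The other calls were Acta1 (-1.14), Vcl (-1.01), Ptk2 (-0.78), Rdx (-0.74) and Lasp1 (-0.68) downwards and Capzb (0.55), Src (0.55), Rock2 (0.47), Myh9 (0.47), Itgav (0.42) and Vasp (0.37) upwards. In 3DHLK, 26 genes were lower and 5 higher in the LSEC fraction, against 25.7% and 34.7% of all genes, and the median log2 change was -0.57 over the set and 0.11 over all genes. Tpm2 was lower, with a log2 change of -5.32 (95% CI -6.55 to -4.09, adjusted p = 1.86e-07) and Vim at -3.82 (95% CI -4.19 to -3.46, adjusted p = 3.96e-13). For Acta2 the log2 change was -3.72 (95% CI -5.07 to -2.37, adjusted p = 6.2e-05) and for Tagln -3.35 (95% CI -4.31 to -2.40, adjusted p = 3.42e-06). The genes higher in the LSEC fraction were Src at 0.88 (95% CI 0.54 to 1.23, adjusted p = 0.000143) and Capzb at 0.63 (95% CI 0.25 to 1.01, adjusted p = 0.00543). With the mean of its 4 probe sets Src had the opposite sign here and in 3DHL, as did Lasp1 in 3DHLK with its 2 probe sets. For Fermt2 the log2 change was 0.59 (95% CI 0.22 to 0.97, adjusted p = 0.00791) and for Rock1 0.35 (95% CI 0.10 to 0.61, adjusted p = 0.0172), followed by Rhoa at 0.35. The further genes lower in the LSEC fraction were Acta1 (-2.88), Myl9 (-2.51), Ezr (-2.27), Vcl (-2.24), Flna (-2.07), Cnn2 (-1.77), Msn (-1.51), Asap1 (-1.43), Lasp1 (-0.88), Pxn (-0.78), Cnn3 (-0.63), Tpm4 (-0.58), Rdx (-0.56), Itgav (-0.42), Arpc5 (-0.40), Ilk (-0.36) and, with overlapping arrays, Actn1 (-0.70).

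All 7 focal adhesion genes named for LSECs except Rac1 (0.10) were called in the 3DHLK comparison, where 25.7% of all genes were called lower and 34.7% higher. Itgb1 (-1.57), Tln1 (-1.21), Rock2 (-1.08), Ptk2 (-0.96) and Itga5 (-0.69) were lower in the LSEC fraction and Rhoa higher. The stellate cell and fibroblast marker mean was 6.25 to 6.51 in the LSEC fraction of 3DHLK and 9.82 to 10.05 in its hepatocytes. In this comparison 18 of 21 markers were lower, against 25.7% of all genes. In 3DHL the mean was 6.31 to 6.44 in the LSEC fraction and 7.79 to 8.12 in hepatocytes (11 markers lower, against 21.9% of all genes). The part of these markers in the values of Acta2, Tpm2 and Vim was not tested. Of the 31 calls in 3DHLK, 25 held in each of the 6 fits that left out 1 array, and of the 19 in 3DHL, 12, while in 3DHLK Actn1 was at -0.43 without hepatocyte replicate 2 and Capzb at 0.41 without hepatocyte replicate 1. Without 3DHL hepatocyte replicate 3, 12 genes were called in 3DHL, and Acta2 lost its call there whichever array was left out (adjusted p up to 0.077). Here too the spread used for Acta2 includes HM (SD 2.21) and CS (SD 1.13). Its SD was 0.150 in the LSEC fraction and 0.109 in the hepatocytes of 3DHL.

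The LSEC fraction of 3DHLK had lower levels of transgelin, calponin, moesin and filamin than the KC fraction, and its hepatocytes higher levels of Vim, Tpm2, Acta2 and Myl9. Against the KC fraction, 14 genes were lower and 1 higher in the LSEC fraction (5.35% and 9.73% of all genes; medians -0.35 and -0.02). Tagln was lower, with a log2 change of -2.54 (95% CI -3.61 to -1.47, adjusted p = 0.00125) and Cnn2 at -1.81 (95% CI -2.22 to -1.40, adjusted p = 8.87e-07). For Msn the log2 change was -1.81 (95% CI -2.21 to -1.41, adjusted p = 6.04e-07) and for Flna -1.41 (95% CI -1.89 to -0.94, adjusted p = 0.00012), and Vim was higher by 1.36 (95% CI 0.95 to 1.77, adjusted p = 3.42e-05). Actn1 (-1.37), Rock2 (-0.83), Vcl (-0.82), Zyx (-0.74), Lasp1 (-0.55), Vasp (-0.54), Cnn3 (-0.47), Myh9 (-0.47) and Rac1 (-0.47) were lower too, as was Ezr (-0.74) with overlapping arrays. Of the 15 calls, 6 (Tagln, Cnn2, Msn, Flna, Lasp1 and Vim) held in each of the 5 fits that left out 1 array. The count was 6 without KC replicate 1, and Actn1 and Ezr were then at -0.87 and -0.40. Hepatocytes of 3DHLK, set against the same KC fraction, had 14 genes higher and 9 lower (25.9% and 30.6% of all genes). Vim was higher by 5.18 (95% CI 4.77 to 5.59, adjusted p = 7.21e-14) and Tpm2 by 4.80 (95% CI 3.43 to 6.17, adjusted p = 5.13e-06). For Acta2 the log2 change was 3.99 (95% CI 2.48 to 5.5, adjusted p = 0.000122) and for Myl9 2.53 (95% CI 1.75 to 3.32, adjusted p = 1.33e-05), and Fermt2 was lower, with a log2 change of -1.15 (95% CI -1.57 to -0.73, adjusted p = 8.33e-05) and Src at -0.98 (95% CI -1.37 to -0.59, adjusted p = 0.000192). For Rac1 the log2 change was -0.57 (95% CI -0.85 to -0.29, adjusted p = 0.00135) and for Vasp -0.57 (95% CI -0.83 to -0.30, adjusted p = 0.000827). Among the focal adhesion genes singled out above, Itgb1 (1.20), Itga5 (1.08), Tln1 (0.92) and Ptk2 (0.79) were higher in hepatocytes and Rhoa (-0.37) lower, and Rock2 (0.25) did not pass the test. The other calls were Acta1 (2.25), Ezr (1.54), Vcl (1.42), Asap1 (0.73), Flna (0.66) and Lasp1 (0.32) upwards and Capzb (-0.53), Actn4 (-0.42), Pfn1 (-0.38) and Arpc2 (-0.37) downwards. Lasp1 had the opposite sign with the mean of its 2 probe sets. Of the 23 calls, 14 held in each of the 5 fits that left out 1 array, and Capzb (-0.31) and Pfn1 (-0.22) were smaller without hepatocyte replicate 1, as was Capzb without KC replicate 1 (-0.28).

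Between the KC fraction of 3DHLK and KC monolayers most genes of the array differed. Of the set, 21 genes were higher and 10 lower in the KC fraction, against 44.5% and 20.8% of all genes, shares close to those of the set (45.7% and 21.7%). Vim was lower, with a log2 change of -4.57 (95% CI -4.98 to -4.16, adjusted p = 8.26e-15) and Tpm2 at -2.41 (95% CI -3.78 to -1.03, adjusted p = 0.0031). For Acta2 the log2 change was -2.0 (95% CI -3.51 to -0.48, adjusted p = 0.0203) and for Tln1 -1.29 (95% CI -1.59 to -0.99, adjusted p = 9.63e-08). Cnn3 was higher by 3.26 (95% CI 2.97 to 3.55, adjusted p = 5.55e-15) and Fermt2 by 2.84 (95% CI 2.42 to 3.26, adjusted p = 5.29e-11). For Zyx the log2 change was 2.43 (95% CI 1.96 to 2.89, adjusted p = 4.24e-09) and for Acta1 2.05 (95% CI 1.37 to 2.72, adjusted p = 1.07e-05). The other genes called lower were Ezr (-1.17), Myl9 (-1.12), Vasp (-1.06), Itgav (-1.0), Asap1 (-0.88) and Src (-0.80), and the other 17 called higher ran from Lasp1 (0.32) to Rdx (1.85), with Itgb1 at 0.70. Itga5 (0.13), Rock2 (0.34), Ptk2 (-0.31) and Rhoa (-0.29) did not pass the test. In the same arrays all 14 hepatocyte markers were higher and all 15 macrophage markers lower in the KC fraction, with the list means given above, and their part in these values was not tested. Both counts depend on the scaling, since the median change of all genes was 0.27 as deposited, 0.04 after cyclic loess and -0.09 after centring on 14 housekeeping genes. Under these the set had 12 genes higher and 22 lower, and 15 higher and 18 lower, and the higher share of all calls was 68.2%, 51.1% and 45.3%. Lasp1, Rac1 and Arpc5, called higher as deposited at 0.32, 0.44 and 0.37, came out lower after cyclic loess at -0.49, -0.34 and -0.37. Itgb1 and Cnn2, called higher at 0.70 and 0.54, were at -0.042 and -0.15 and not called. Of the 31 calls, 22 held in each of the 5 fits that left out 1 array, and Arpc5 (0.20) and Tagln2 (0.44) were smaller without KC monolayer replicate 2 and Rock1 (0.29) without KC fraction replicate 1.

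Further genes of the same machinery were taken from lists by function, which were also chosen with earlier results of these data known. Their counts stand beside the shares of all genes called, which were 3.89% lower and 3.58% higher in the LSEC fraction of 3DHLK against that of 3DHL, 7.72% higher and 3.76% lower in the hepatocyte fraction, and 44.5% higher and 20.8% lower in the KC fraction against monolayers. Of 29 genes of actin assembly and turnover, 3 were lower and 0 higher in the LSEC fraction of 3DHLK than in that of 3DHL (10.3% and 0% of the list, median -0.08), with Lcp1 (plastin of leukocytes) at -1.33 (adjusted p = 0.000993) and Tmsb4x (thymosin beta-4, which holds actin monomers) at -0.58 (adjusted p = 0.000622). In hepatocytes 4 (13.8%) were higher, led by Gsn (gelsolin, which severs filaments) at 2.82 (adjusted p = 3.99e-09) and Capg (a capping protein of macrophages) at 2.39 (adjusted p = 2.81e-07). In the KC fraction against monolayers 8 (27.6%) were higher and 16 (55.2%) lower, with Cotl1 at -4.77 (adjusted p = 5.32e-11) and Lcp1 at -4.62 (adjusted p = 1.52e-12) lowest and Cfl2 (muscle cofilin) at 3.23 (adjusted p = 1.57e-10) and Pls3 (T-plastin) at 2.47 (adjusted p = 7.74e-12) highest. Of 22 further contractile genes, 3 (13.6%) were lower in the LSEC fraction, with Fhl2 (a LIM protein of muscle and adhesions) at -1.66 (adjusted p = 0.000358) and Pdlim5 at -1.03 (adjusted p = 0.00791), and 7 (31.8%) were higher in hepatocytes, led by Csrp2 at 1.29 (adjusted p = 0.00044) and Myh10 (heavy chain of non-muscle myosin IIB) at 1.28 (adjusted p = 9.47e-05). The KC fraction had 11 (50%) higher and 2 (9.09%) lower, among them Fhl2 at 2.97 (adjusted p = 1.62e-08), Pdlim1 at 2.71 (adjusted p = 1.44e-10), Csrp1 at -1.48 (adjusted p = 0.000331) and Limk1 (LIM kinase 1, with overlapping arrays) at -0.38 (adjusted p = 0.0338).

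Of 14 further integrins, 1 (7.14%, against 3.89% of all genes) was lower in the LSEC fraction of 3DHLK, Itga6 (of the laminin receptors) at -0.57 (adjusted p = 0.00198), and 0 were higher. In hepatocytes 3 (21.4%, against 7.72%) were higher and 1 (7.14%, against 3.76%) lower. There Itga8 (known from stellate cells and smooth muscle) rose by 3.84 (adjusted p = 9.99e-08) and Itgb3 by 1.76 (adjusted p = 0.00072), and Itgb4 fell, with a log2 change of -0.53 (adjusted p = 0.0311). In the KC fraction 6 (42.9%, against 20.8%) were lower and 3 (21.4%, against 44.5%) higher than in monolayers, with the leukocyte integrins Itgal at -5.38 (adjusted p = 2.73e-16) and Itgb2 at -4.99 (adjusted p = 8.03e-18) lowest and Itga7 at 1.29 (adjusted p = 0.000103) and Itga1 at 1.06 (adjusted p = 6.97e-05) highest. Of 26 further genes of the adhesion plaque and focal adhesion kinase signalling, 5 (19.2%, against 3.89%) were lower and 1 (3.85%, against 3.58%) higher in the LSEC fraction. Cav1 (caveolin-1, the coat protein of caveolae) fell, with a log2 change of -2.20 (adjusted p = 0.000225) and Parva (alpha-parvin) at -0.72 (adjusted p = 0.0452), and Pik3r1 rose by 0.44 (adjusted p = 0.0396). In hepatocytes 4 (15.4%, against 7.72%) rose and 2 (7.69%, against 3.76%) fell, with Fyn (a kinase of the Src family) at 1.90 (adjusted p = 7.11e-08) and Lims2 at 0.99 (adjusted p = 0.00133). For Tes the log2 change was -0.95 (adjusted p = 0.000689) and for Jun -0.70 (adjusted p = 0.00442). The KC fraction had 12 higher (46.2%, against 44.5%) and 11 lower (42.3%, against 20.8%), led by Lims2 at 2.35 (adjusted p = 5.49e-09) and Lims1 at 1.99 (adjusted p = 4.33e-11). For Tns3 the log2 change was -3.24 (adjusted p = 1.15e-13) and for Parvg -2.74 (adjusted p = 1.28e-09), the largest falls.

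Of 11 further genes known as targets or partners of SRF and of the YAP coactivators, 4 were lower and 1 higher in the LSEC fraction of 3DHLK than in that of 3DHL (36.4% and 9.09%, against 3.89% and 3.58% of all genes; median -0.41). Fhl2 is on this list too, Ankrd1 (a stretch-responsive target of YAP) fell, with a log2 change of -1.65 (adjusted p = 0.000664), Ccn2 (connective tissue growth factor) at -1.04 (adjusted p = 0.000971) and Amotl2 at -0.76 (adjusted p = 0.0114), and Egr1 rose by 0.68 (adjusted p = 0.0461). In hepatocytes 3 (27.3%, against 7.72%) rose and 0 fell, with Lats2 (a kinase that restrains YAP) at 0.92 (adjusted p = 0.0032) and Fhl2 at 0.90 (adjusted p = 0.032). In the KC fraction 8 (72.7%, against 44.5%) were higher and 2 (18.2%, against 20.8%) lower than in monolayers, with Ccn1 at 3.62 (adjusted p = 6.02e-09) and Fhl2 at 2.97 (adjusted p = 1.62e-08) highest and Mrtfa (the actin-sensing coactivator of SRF) at -0.87 (adjusted p = 1.81e-05) and Ankrd1 at -0.82 (adjusted p = 0.0282) lowest. Of the genes whose stretches are printed above, Acta1 and Cnn2 fell in the LSEC fraction (-2.47 and -1.79) and in CS against HM (-3.85 and -1.17), and Actg1 had -0.18 and -0.27, neither called.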

How the data were processed

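Expression was measured in 23 samples on Affymetrix whole-genome rat arrays. The deposited values are log2 values that the authors made from the scanned arrays by RMA in R (background correction, quantile normalization and probe summarization), after amplification of RNA with the Ovation Pico system and quality checks with Simpleaffy; no version of RMA was stated. Quantile normalization is meant to give all arrays 1 distribution. The deposited values did not fully share one, since their interquartile range ran from 2.35 to 3.38 between arrays. A change shared by most genes can still be reduced or distorted by this step, and how far was not tested.

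Of 31099 probe sets, 57 controls were left out, and 20832 named 1 gene and 436 several. The probe set with the highest mean stood for each of 14218 genes. Among the 46 measured genes of the set, 25 had 1 probe set and 21 had more. Means of the 8 groups were fitted together with limma 3.58.1 in R 4.3.3 (lmFit and eBayes), without the replicate number as a block, and p-values were adjusted over all genes by the Benjamini-Hochberg method. The method was tested on simulated data, where 86% of genes changed by 1 and 38% of genes changed by 0.5 on the log2 scale were called in the LSEC comparison. Precision was limited by the 2 or 3 arrays per group. Figures were drawn with matplotlib 3.10.9.

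Named in each comparison were the 4 largest called rises and falls without overlap between arrays. Of the 7 focal adhesion genes the study names, those called were named in each comparison and those not called only in some. In each further list the 2 largest called rises and falls were named, and per-array values were given for the 12 genes with the widest range of group means. The arrays of Cnn2, Flna, Cnn1 and Actn1 were shown, and Ccn2 and Amotl2 named, after their values were seen. The 48 genes and all lists were chosen with earlier results of these data known. Alternatives were the mean of a gene's probe sets, cyclic loess, centring on 14 housekeeping genes, leaving out the genes in the lowest 30% of means, a trended and robust eBayes, the KC monolayers left out, only the arrays compared, the replicate block, and each array left out. One grouping of genes is not reported here.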

Additional observations from a re-analysis of the deposited data

Results flagged for a closer look

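The change with KCs (3DHLK minus 3DHL) differed between the LSEC fraction and the hepatocyte fraction by limma's interaction test for 18 genes of the set. The LSEC change minus the hepatocyte change was -3.90 for Tagln, -3.03 for Tpm2, -1.97 for Myl9, -1.87 for Cnn2, -1.83 for Asap1, -1.76 for Flna, -1.75 for Itga5, -1.74 for Acta1, -1.65 for Actn1 and -1.59 for Msn. It was -1.55 for Rock2, -1.33 for Itgb1, -1.23 for Vcl, -1.13 for Tln1, -0.89 for Tagln2, -0.84 for Itgav, -0.71 for Cnn3 and -0.65 for Myh9. No group had the 4 samples needed to test a single sample as standing apart.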

How the results depend on the processing

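Groups of 2 or 3 arrays limited what could be called, and the cause of the differences between settings was not tested. In the LSEC comparison 21 genes were called, and 20 to 31 under the 8 settings other than leaving out an array. Calls among all genes there moved from 509 higher and 553 lower as deposited to 1352 and 1159 with only the arrays compared. Genes lower or higher in 3DHL hepatocytes than in HM numbered 6, against 19 without the KC monolayers, 18 after cyclic loess, 11 after housekeeping centring and 23 with only the arrays compared. Among all genes, 1001 were higher and 668 lower as deposited and 1088 and 831 after housekeeping centring, with the other settings given above. In the LSEC fraction against the KC fraction of 3DHLK 15 genes were called, against 26 without the KC monolayers and 23 after cyclic loess. All genes had 1384 higher and 761 lower calls as deposited, 2065 and 1574 without the KC monolayers and 1468 and 1257 after cyclic loess. Turned signs are listed below only where either value was called. With neither called, 30 further changes turned sign with the mean of probe sets, 22 after cyclic loess and 15 after housekeeping centring. With the mean of probe sets, the sign turned for Src (3DHL hepatocytes against CS 0.37, LSEC against hepatocyte fraction -0.25 in 3DHL and -0.15 in 3DHLK), Asap1 (LSEC against hepatocyte fraction of 3DHL -0.45), Lasp1 (LSEC against hepatocyte fraction of 3DHLK 0.12, hepatocyte against KC fraction -0.24) and Ptk2 (KC fraction against monolayers 0.46). Between the KC fraction and the monolayers, cyclic loess turned Cnn2 (-0.15), Lasp1 (-0.49), Itgb1 (-0.042), Rac1 (-0.34), Arpc2 (-0.67) and Arpc5 (-0.37), and housekeeping centring turned Lasp1 (-0.037). Among all calls, the higher share moved to 56.2% after housekeeping centring in hepatocytes of 3DHLK against 3DHL (67.2% as deposited), to 44.5% for the difference of changes (34.0%), and after cyclic loess to 44.4% for 3DHL against HM (60.0%) and 53.9% for the LSEC against the KC fraction (64.5%), and hepatocytes of 3DHLK then had 12 genes of the set higher and 0 lower. Without the KC monolayers the higher share of all calls was 48.8% in hepatocytes of 3DHLK against 3DHL and 53.6% for the difference of changes, which had 51.5% with only the arrays compared.

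With each array left out in turn, called genes numbered 13 to 18 for the LSEC comparison, 5 to 10 for the hepatocyte comparison, 16 to 18 for the difference of changes, 16 to 22 for CS against HM, 4 to 6 for 3DHL against HM and 10 to 14 for 3DHL against CS. They numbered 12 to 16 and 28 to 31 for the LSEC against the hepatocyte fraction of 3DHL and 3DHLK, 6 to 16 for the LSEC and 18 to 23 for the hepatocyte against the KC fraction, and 26 to 33 for the KC fraction against monolayers.

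Replicate numbers did not pair the samples (correlations of same-numbered deviations -0.35 to 0.33). With the replicate number as a block, 20 genes were called in the LSEC comparison, 10 in the hepatocyte comparison (without Bcar1, Pfn1 and Lasp1, at an adjusted p of 0.0585, 0.0617 and 0.0514) and 17 for the difference of changes, and 20, 6 and 15 for CS against HM, 3DHL against HM and 3DHL against CS. The block gave 20 and 31 for the LSEC against the hepatocyte fraction of 3DHL and 3DHLK, 16 and 23 for the LSEC and the hepatocyte against the KC fraction and 31 for the KC fraction against monolayers.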
